A study of Pseudotsuga menziesii with 10 samples.

Results

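Of 54889 assembled transcripts (contigs) in a Douglas-fir (Pseudotsuga menziesii) seed data set, 78 were scarce in the female gametophyte on 10 June and abundant on 6 July, and low in cone tissue. They were chosen from the measured values. Each was at least 4 log2 units (16-fold) higher on 6 July than on 10 June in both pollinated and unpollinated megagametophytes, and under 10.0 FPKM in both cone scales and cone bracts. FPKM counts sequenced fragments per length of contig and per size of library. Values are read as log2(FPKM + 1), a scale on which contigs that start near 0 show less than their full fold change. All fold differences below are on this scale, so those between low levels are larger in FPKM itself. Contigs with the same rise at any cone level numbered 151. The 78 are followed here on 22 and 30 June, dates that the choice did not use, to describe when they came on in each pollination state and whether pollinated megagametophytes were ahead.

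The conifer megagametophyte is a haploid tissue that develops inside the ovule before fertilization and, unlike the endosperm of flowering plants, needs no fertilization to form. It surrounds the embryo, fills with storage protein and lipid as the seed matures, and feeds the seedling at germination. In Douglas-fir an ovule without pollen can still form a megagametophyte, which later degenerates.

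All tissue came from ramets of 1 orchard clone, genotype 970. Cones were bagged before anthesis and either received a pollen mix of 6 genotypes or were kept without pollen. Megagametophytes were dissected on 10, 22 and 30 June and 6 July 2011 and pooled, 200 to 400 per sample, to give 1 polyA RNA library for each date and state, 8 in all. Scales and bracts collected on 26 May gave 1 library each. Per the labels the dates match corrosion cavity formation, fertilization, embryogenesis and, without pollen, early abortion. The labels name the pollinated samples megagametophyte and embryo and the unpollinated ones megagametophyte, so the share of embryo RNA in the pollinated pools is not known. In such pools fewer cells of a type and less RNA per cell cannot be told apart.

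The table pairs no gene names or sequences with the contigs. Roles of the 78 contigs, and the markers of megagametophyte and embryo, are therefore not described, and contigs are named by identifier for at most 2 in each direction of a comparison. Contigs at 10 FPKM or more numbered 8468 to 8815 per library. Read totals are unknown. With 1 library per group, differences between single libraries have no replicate check.

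The 78 contigs went from trace to substantial levels. In pollinated megagametophytes the medians over the 4 dates were 0.395, 0.602, 28.2 and 76.0 FPKM. The unpollinated medians were 0.214, 1.23, 8.78 and 60.4 FPKM. The widest gap between the medians of the 2 states was thus on 30 June. On 6 July the pollinated median was still the higher, and contig by contig the median difference was 0.53 log2 units. Together the 78 contigs made up 0.0267% of all FPKM in the pollinated library of 10 June and 2.80% in that of 6 July. The shares in the unpollinated libraries were 0.0146% and 1.88%. On 30 June the shares were 1.24% and 0.491%.

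**Figure D1:**
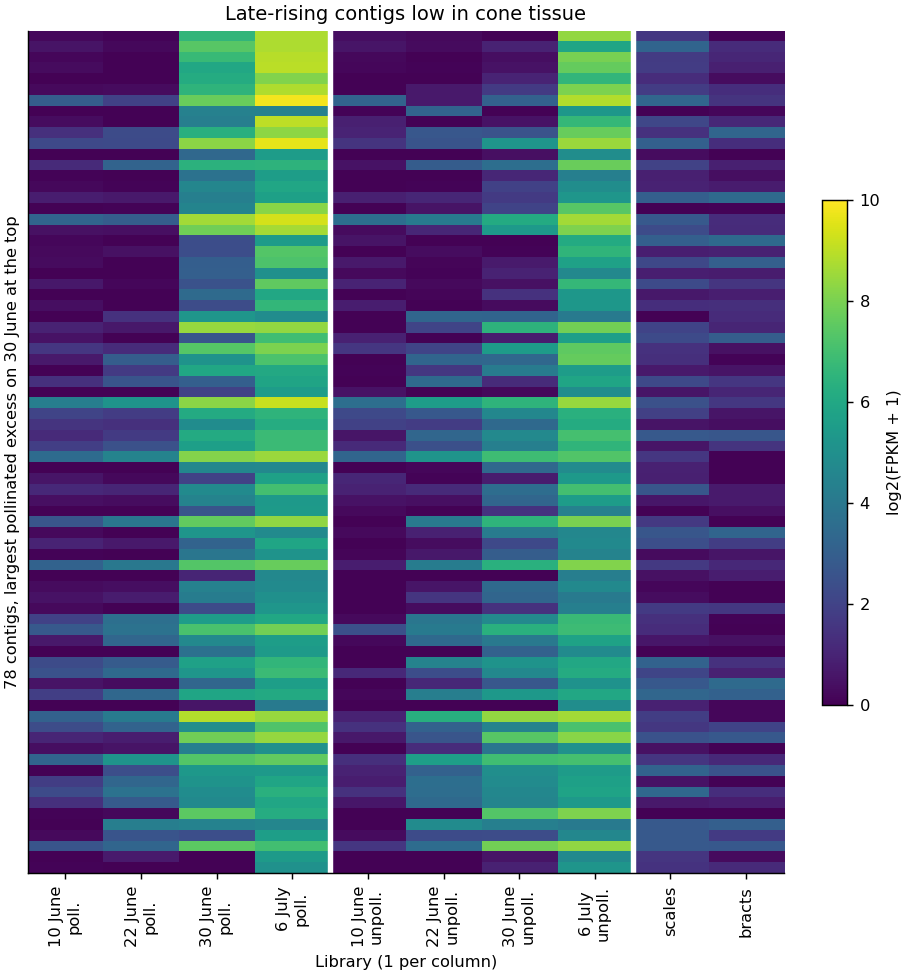
Each row is 1 of the 78 contigs and each column 1 library, coloured by log2(FPKM + 1), with rows ordered by pollinated minus unpollinated on 30 June. The 30 June column is bright down most of the pollinated block and dark in the upper part of the unpollinated block, while both 6 July columns are bright throughout and scales and bracts stay dark, as the choice of contigs required.

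The first and last dates and the cone libraries describe the choice and are given without a test. On 10 June, 47 contigs were under 1 FPKM in both states, and 3 had reached 10 FPKM in either. On 6 July levels ran from 16.1 to 903 FPKM in pollinated and from 16.1 to 464 FPKM in unpollinated megagametophytes, and 26 contigs reached 100 FPKM in both states. The rise had a median of 5.29 log2 units in pollinated and 5.11 in unpollinated megagametophytes. Medians in scales and bracts were 2.01 and 0.879 FPKM, and 25 contigs were under 1 FPKM in both. Scales were the higher of the pair for 53 contigs and bracts for 23, by 2-fold or more for 21 and 2 contigs.

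The contigs nearest to the limits of the rule had a lower median difference on 30 June than the 78 as a whole, except for those just inside the cone limit. The 12 contigs just inside the rise limit (4.01 to 4.24 log2 units in the state with the smaller rise) had a median pollinated minus unpollinated difference of 0.86 log2 units on 30 June. The 25 just outside it (up to 3.99) had 0.77. For the 9 just inside the cone limit (3.21 to 3.45 in the higher of scales and bracts) the median was 2.32, and for the 4 just outside it (3.49 to 3.63) it was 0.57.

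GAZW02102401 and GAZW02018926 had the highest mean level on 6 July. GAZW02102401 stood at 6.78, 2.84, 208 and 903 FPKM in pollinated megagametophytes from the first to the last date, and at 8.0, 0.591, 7.63 and 464 FPKM in unpollinated ones. Scales held 8.78 FPKM of it and bracts 1.87 FPKM. In both states this contig was lower on 22 June than on 10 June, and on 30 June the pollinated library alone was above its level of 10 June. GAZW02018926 stood at 3.66, 3.76, 309.8 and 786 FPKM with pollen and at 1.81, 4.98, 36.0 and 361 FPKM without, with 7.40 FPKM in scales and 1.46 FPKM in bracts. Here both states were above their earlier dates on 30 June, the pollinated library far more so.

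The date on which each contig came on was taken as the first date at or above the midpoint, in log2 units, between its own 10 June and 6 July values in that state. Pollinated megagametophytes had a single main date. The midpoint was first reached on 22 June by 2 contigs, on 30 June by 58 and on 6 July by 18. In unpollinated megagametophytes the dates were spread, with 13 contigs on 22 June, 29 on 30 June and 36 on 6 July. By 30 June, 60 contigs had passed the midpoint in pollinated and 42 in unpollinated megagametophytes.

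The steps between dates differed in the same way. Between 10 and 22 June the median step was 0.00 log2 units in pollinated and 0.54 in unpollinated megagametophytes. Between 22 and 30 June it was 3.41 and 1.18, and between 30 June and 6 July 1.34 and 2.61. The largest of the 3 steps was the one from 22 to 30 June for 55 contigs in pollinated megagametophytes and for 18 in unpollinated ones. It was the last step for 19 and 44 contigs, and the first for 4 and 16. By 30 June the median contig had completed 75.6% of its log2 rise in pollinated and 51.6% in unpollinated megagametophytes. Few contigs turned down at the end: 7 were lower on 6 July than on 30 June in the pollinated libraries and 1 in the unpollinated ones.

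**Figure D2:**
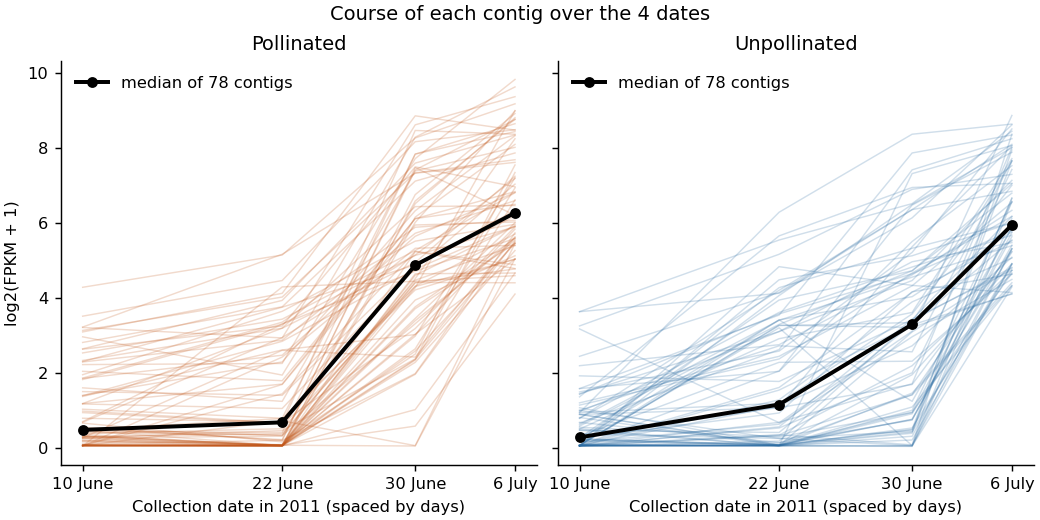
Thin lines are single contigs and the black line is the median of the 78, in log2(FPKM + 1), with dates spaced by days and 1 library per date and state. The pollinated median climbs most between 22 and 30 June (from 0.68 to 4.87), the unpollinated one between 30 June and 6 July (from 3.29 to 5.94).

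Setting the states side by side for each contig, 48 contigs reached the midpoint on the same date in both. For 19 the pollinated date was earlier, and for 11 the unpollinated one. All 19 were at the midpoint on 30 June with pollen and on 6 July without it. Their medians on 30 June were 34.3 and 2.23 FPKM, and on 6 July 144 and 127 FPKM. The gap of the 19 on 30 June largely follows from how they were picked. Contig by contig, the pollinated minus unpollinated difference of the 19 still had a median of 0.7 log2 units on 6 July. Of the 11, 10 were at the midpoint on 22 June without pollen and on 30 June with it. The medians of these 10 on 22 June were 9.02 FPKM with pollen and 15.0 FPKM without, and on 30 June 48.1 and 30.5 FPKM. On 10 June their medians were 2.75 FPKM with pollen and 0.169 FPKM without. Each midpoint is set from the 10 June value of its own state, so a lower start gives a lower midpoint. That these 10 were lower with pollen on 22 June largely follows from how they were picked, and on 30 June 10 of the 10 were higher with pollen. The 17 contigs that waited until 6 July in both states had medians of 4.13 FPKM with and 0.444 FPKM without pollen on 30 June, and 15 of them were higher in the pollinated library on that date.

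A date count sees only whole sampling intervals. When the day of the midpoint was interpolated linearly between dates, a description added after the data were examined, the median was 17.03 days after 10 June in pollinated and 19.2 days in unpollinated megagametophytes. The pollinated day was earlier for 46 contigs and later for 32. The unpollinated day minus the pollinated day had a median of 0.99 days, with quartiles of -0.889 and 2.56 days. The order of the states by midpoint thus differed from contig to contig, whereas the levels on 30 June were nearly all in one order.

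**Figure D3:**
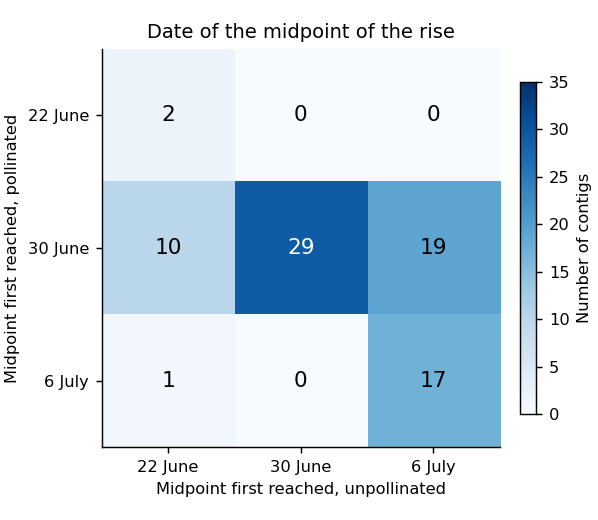
Each cell gives the number of contigs, of 78, by the date on which the midpoint of the log2 rise was first reached in pollinated (vertical) and unpollinated (horizontal) megagametophytes. The cells on the diagonal hold 48 contigs, 19 stand to the right of it (30 June with pollen, 6 July without) and 11 to the left.

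On 30 June the pollinated library was higher for 75 of the 78 contigs. Of all 27065 contigs tested, those averaging at least 1 FPKM over the 8 megagametophyte libraries, 52.8% were higher and 45.3% lower in the pollinated library on that date. The median difference was 1.30 log2 units (2.45-fold) over the 78 contigs and 0.03 over all contigs tested. Where the higher value reached 10 FPKM, 34 contigs were at least 2-fold higher in the pollinated library and 0 in the unpollinated one. The same rule held for 1.7% and 1.77% of all contigs tested. Of the 57 contigs at 10 FPKM or more in either library, the 34 are 59.6%, against 4.74% of all contigs at that level. With the same minimum of 10 FPKM, a pollinated excess of at least 4-fold was seen for 19 of the 78, and an unpollinated excess of that size for 0. Over all 27065 contigs tested the counts were 121 and 171. A pollinated excess of at least 16-fold was seen for 8 of the 78, and for 28 of all contigs tested. On 30 June 34 contigs had reached 10 FPKM in both states, 23 in the pollinated library only and 0 in the unpollinated library only. This split was not made over all contigs tested.

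The widest gaps belonged to contigs that were near 0 without pollen on 30 June. GAZW02094698 stood at 0.149, 0.0570, 94.7 and 433 FPKM from 10 June to 6 July with pollen and at 0.292, 0.189, 0.0425 and 328 FPKM without. GAZW02053960 stood at 0.424, 0.165, 169 and 429.5 FPKM with pollen and at 0.464, 0.223, 0.919 and 57.9 FPKM without. Both were under 1 FPKM in all of the other June libraries, and on 6 July the first was nearly as high without pollen as with it, while the second was 2.87 log2 units apart. Over the 8 contigs at 16-fold or more, levels on 30 June ran from 20.3 to 208 FPKM with pollen and from 0.0425 to 7.63 FPKM without. On 6 July the same 8 ran from 20.1 to 903 FPKM with pollen and from 38.7 to 464 FPKM without.

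Only 3 contigs were higher in the unpollinated library on 30 June, none of them by 1 unit on the log2(FPKM + 1) scale. GAZW02064790 stood at 0.0353 FPKM with and 0.879 FPKM without pollen on that date, and GAZW02029261 at 0.0425 and 0.444 FPKM. Both were thus under 1 FPKM in either state and reached 31.9 and 36.3 FPKM (GAZW02064790) or 42.7 and 25.5 FPKM (GAZW02029261), with and without pollen, on 6 July. The third stood at 179 and 231 FPKM on 30 June and 124 and 323 FPKM on 6 July.

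**Figure D4:**
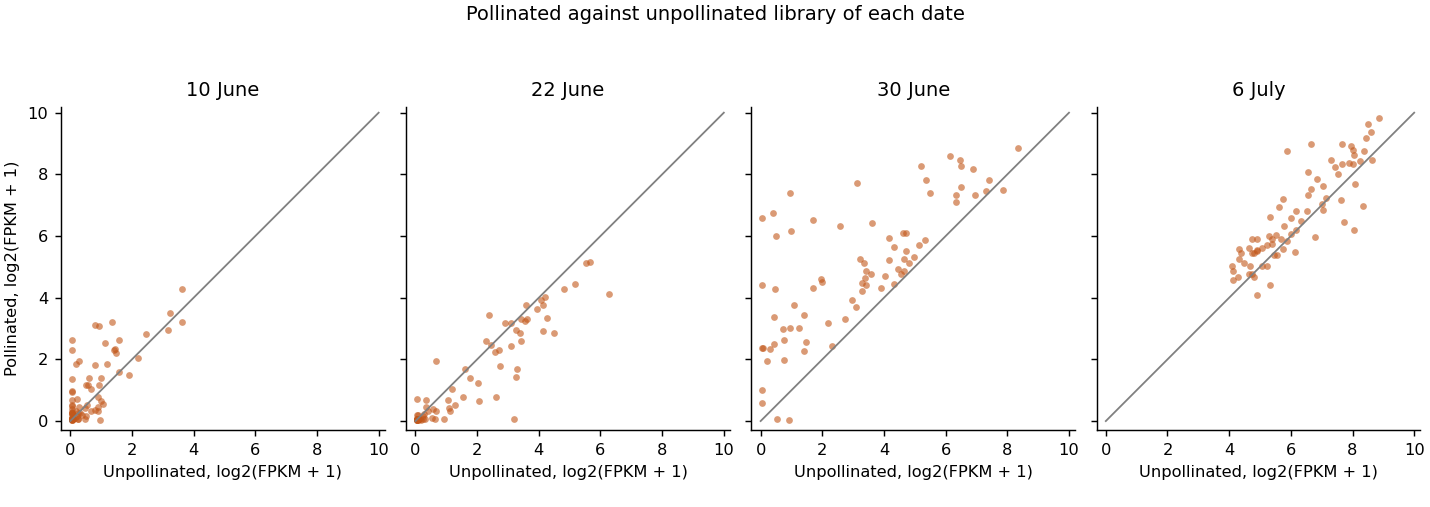
Each point is 1 of the 78 contigs, at its value in the unpollinated (horizontal) and pollinated (vertical) library of the date, in log2(FPKM + 1), with the line of equal values. On 30 June 75 points lie above the line, on 22 June 58 lie below it, and on 6 July 60 lie above it.

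The excess was not present on 22 June. On that date 58 contigs were lower in the pollinated library, 17 were higher and 3 were equal, and the median difference was -0.16 log2 units. Of all contigs tested, 47.4% were lower and 50.3% higher. Most of these differences were small on the log2(FPKM + 1) scale or between values near 0. On that date 35 contigs were under 1 FPKM in both libraries, and 8 contigs were lower by 2-fold or more on that scale. In FPKM itself more contigs were 2-fold lower, since the scale shrinks differences between low levels. Where the higher value reached 10 FPKM, 3 were 2-fold or more lower and 0 higher, against 0.58% and 1.8% of all contigs tested. Among the 43 contigs at 1 FPKM or more in either library of 22 June, 35 were lower in the pollinated one, with a median of -0.43 log2 units. The order of the states turned for 57 contigs, which were lower with pollen on 22 June and higher on 30 June. The share of all contigs tested that turned so was not counted.

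The widest differences of 22 June were on the unpollinated side. GAZW02019762 stood at 0.0425, 0.0425, 20.3 and 20.1 FPKM with pollen from the first to the last date and at 0.0570, 8.19, 0.0425 and 38.7 FPKM without. The unpollinated course of this contig was not monotonic, since its level on 30 June was back at the level of 10 June. GAZW02063339 stood at 7.51, 16.4, 460.4 and 354 FPKM with pollen and at 0.919, 76.7, 328 and 395 FPKM without. It was far higher without pollen on 22 June and within 0.49 log2 units of the pollinated level on the later dates. In the other direction GAZW02102401 differed by 1.27 log2 units at 2.84 and 0.591 FPKM, and GAZW02089859 by 1.06 at 9.78 and 4.17 FPKM.

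By 6 July the pollinated excess was smaller but had not closed. The pollinated library was higher for 60 contigs and lower for 18, against 46.2% and 51.0% of all contigs tested, with a median difference of 0.53 log2 units. At 2-fold or more, 14 contigs were higher with pollen and 3 without. The rule puts all 78 at 10 FPKM or more on this date, and of all contigs at that level in either library 4.47% and 4.08% differed so (1.59% and 1.45% of all contigs tested). For 64 contigs the excess on 30 June was larger than the difference on 6 July, a count that was not made over all contigs tested. On 10 June 46 contigs were higher and 26 lower with pollen (42.6% and 55.5% of all contigs tested). The rule used the values of 10 June and 6 July in both states. The counts of these 2 dates therefore describe the chosen contigs and are no independent result.

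The lead on 30 June was larger in contigs that were still near 0 on 22 June. Contigs under 1 FPKM in both libraries of 22 June had a median difference of 2.03 log2 units on 30 June, and the other 43 had 1.10. Over the 78 contigs the 30 June difference correlated at r = -0.35 with the mean log2 value of 22 June, and with the difference on 10 June, 22 June and 6 July at -0.31, 0.05 and 0.43. These values describe 78 contigs of the same libraries, which are not independent, and carry no p-value.

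The pair of 30 June was set against the pairs of the other 3 dates in 1 model over all 27065 contigs (limma, date as a block). The term for pollinated on 30 June was positive for 69 of the 78 contigs, with a median of 1.33 log2 units against 0.05 over all contigs. No contig passed at an adjusted p under 0.05, among the 78 or among all (0% in each direction); with 2 residual degrees of freedom the smallest adjusted p was 0.392. At an unadjusted p under 0.05 there were 34 of the 78 upward and 0 downward, against 2.38% and 2.55% of all contigs tested. The term and its error also draw on the pairs of 10 June and 6 July, whose values the rule used. This count is therefore no independent check of the lead. GAZW02094698 differed by 6.50 ± 0.41 (SE) log2 units and GAZW02103268 by 6.06 ± 0.55, both with a limma adjusted p of 0.392 (0.0682 to 0.951 and 0.172 to 0.951 over 10 alternatives). GAZW02103268 stood at 107 FPKM with and 0.310 FPKM without pollen on 30 June. In the downward direction GAZW02064790 and GAZW02029261 differed by -0.81 ± 0.45 and -0.93 ± 0.54 log2 units, each with a limma adjusted p of 0.992 (0.866 to 0.999 and 0.897 to 0.999 over 9 alternatives).

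The same model with the term on 22 June gave a median of -1.04 log2 units over the 78 contigs and 0.04 over all, and 5 positive values. The other dates of this model include 30 June, so the 2 models share their libraries. With a term for each of the 2 dates in 1 model, the median was -0.63 log2 units on 22 June with 10 positive values, and 1.17 on 30 June with 62 positive values. No contig passed (0% in each direction), and at an unadjusted p under 0.05 there were 13 of the 78 downward and 0 upward, against 3.32% and 5.16% of all contigs. The 22 June term and its error also draw on the pairs of the first and last dates, whose values the rule used. The count of 13 is therefore no independent check of the lower levels with pollen on 22 June. GAZW02027258 differed by -2.16 ± 0.23 (SE) and GAZW02075060 by -1.32 ± 0.33 log2 units (limma adjusted p 0.252 and 0.484; 0.172 to 0.778 and 0.412 to 0.864 over 10 alternatives). GAZW02027258 stood at 0.729 FPKM with and 5.15 FPKM without pollen on 22 June, and 227 and 169 FPKM on 30 June. Upward, GAZW02032336 and GAZW02029261 differed by 0.69 ± 0.92 and 0.58 ± 0.61 log2 units (limma adjusted p 0.877 and 0.841; 0.730 to 1 and 0.670 to 1 over 10 and 9 alternatives).

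The step from 22 to 30 June over both states is estimated from libraries that the rule did not use, while its error below also draws on the libraries of 10 June and 6 July. In limma, with date as a factor and the pollination state as a term, 33 of the 78 contigs were higher on 30 June at an adjusted p under 0.05 and 0 were lower, against 3.62% and 5.3% of all contigs tested. The rule fixes the sum of the 3 steps, so a step upward somewhere was required. The median step was 2.33 log2 units over the 78 contigs and 0.17 over all. GAZW02032336 rose by 7.26 ± 0.53 (SE) log2 units and GAZW02066316 by 3.35 ± 0.29, with limma adjusted p of 0.00372 and 0.00456 (0.000878 to 0.0714 and 0.00189 to 0.0725 over 9 alternatives). GAZW02032336 went from 0.149 to 176 FPKM with pollen and from 0.0425 to 158 FPKM without, and was at 0.0425 FPKM in both scales and bracts. GAZW02066316 went from 0.0353 to 12.1 FPKM with pollen and from 0.0425 to 7.51 FPKM without. Of the 4 contigs with a negative step none passed, and the 2 with the smallest p, GAZW02009213 and GAZW02044714, had steps of -0.88 ± 0.64 and -0.18 ± 0.27 log2 units (limma adjusted p 0.437 and 0.731; 0.402 to 0.630 and 0.697 to 0.838 over 9 alternatives). On the 4 libraries of 22 and 30 June alone, with 1 residual degree of freedom, 0 of 72 contigs passed in limma (48 upward at an unadjusted p under 0.05; smallest adjusted p 0.0714). Without a filter on low values 8 of the 78 passed.

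Late-rising contigs with cone expression were set beside the 78 to see whether the 30 June pattern went with low cone levels. There were 46 that reached 10 FPKM in scales and in bracts, and 27 that did so in one of them. On 30 June 35 of the 46 (76.1%) and 25 of the 27 (92.6%) were higher in the pollinated library, beside 96.2% of the 78. Median differences were 0.72 and 1.05 log2 units, beside 1.30. On 22 June 30 of the 46 and 17 of the 27 were lower with pollen. By 30 June 28 of the 46 had passed the midpoint with pollen and 22 without, and 16 and 10 of the 27. The direction on both dates was thus shared by all 3 sets, and the differences between the sets were not tested.

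**Figure D5:**
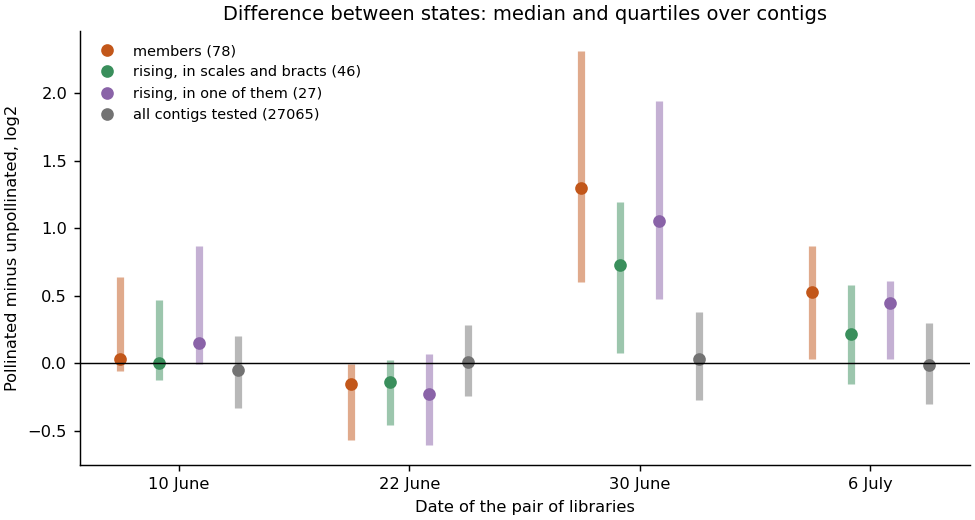
Points are medians and bars quartiles of pollinated minus unpollinated, in log2 units, over the contigs of each set, for the 1 pair of libraries of each date. The 78 contigs have the highest median of the 4 sets on 30 June (1.30), and all 3 late-rising sets lie under 0 on 22 June and above 0 on 30 June.

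Some of the 78 contigs may come from the same gene. In 4 places contigs of consecutive number were both or all in the set, 9 contigs in all, which left 73 separate numbers or runs. The highest contig of 6 July, GAZW02102401, belongs to such a pair, and its neighbour stood at 63.4 and 0.404 FPKM with and without pollen on 30 June and at levels of 504 and 199.9 FPKM on 6 July. A stretch of 20 numbers held 6 of the 78 contigs among 12 in the table. These 6 stood at 2.89 to 6.89 FPKM with pollen and 0.157 to 1.66 FPKM without on 30 June, and at 37.3 to 185 and 19.1 to 100.1 FPKM on 6 July, so they came on later than most. Of 89 contigs with a number next to one of the 78 but outside the set, 38 were 2-fold or more higher on 6 July than on 10 June in both states, against 7.86% of the table.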

How the data were processed

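The deposited table gives 54889 contigs in 10 libraries as log values, taken here to be log2(FPKM + 1), since neither base nor offset is given in the sources used here. All FPKM levels rest on that reading. RSEM 1.2.12, Bowtie 1.0.1, R 3.1.0, Trim Galore 0.2, FastQC 0.10 and bedtools 2.17 are listed, with no roles, in the submitters' processing notes. Whether libraries were also scaled to each other is not given, and such a step would remove differences in overall level. Libraries were not strand specific, per the labels' protocols.

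Libraries were grouped by title. limma 3.58.1 in R 4.3.3 (lmFit, eBayes with trend) was fitted to log2(FPKM + 1), a pseudocount of 1 FPKM, over the 27065 contigs that averaged at least 1 FPKM in the 8 megagametophyte libraries (all 78 passed), with Benjamini-Hochberg adjustment over all of them and a threshold of 0.05. Both libraries of a date enter as separate observations. With 1 library per group, p-values measure departures between dates and states, not between trees. The models were also run on simulated data, with independent noise scaled down from the fits and effects placed on contigs drawn at random. That was a check of the code and cannot show how the p-values behave for contigs chosen as these were. Summaries used Python 3.11.15, pandas 2.3.3 and numpy 2.4.6.

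Contigs named are the 2 highest on 6 July, the 2 widest differences in each direction on 22 and 30 June, and the 2 smallest p in each direction of each test. Lists by annotation words were not used, as the table holds no names. The members, lists and tests were chosen with earlier results of these data known. Alternatives covered thresholds, pseudocount, filter, rescaling and model terms.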

Additional observations from a re-analysis of the deposited data

Results flagged for a closer look

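The difference between pollinated and unpollinated megagametophytes had opposite signs on 22 and 30 June for 57 of the 78 contigs, which were lower with pollen on the first of these dates and higher on the second. By 2-fold or more on both dates this held for 5 contigs. Of the contigs lower with pollen on 22 June, 23 were under 1 FPKM in both libraries of that date. How many of all contigs tested changed sign in this way was not counted. By date, 47.4% of them were lower with pollen on 22 June and 52.8% higher on 30 June. With 1 pair per date, this change of sign was not tested for the set. Over the 78 contigs the 30 June difference minus the 22 June difference had a median of 1.92 log2 units.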

How the results depend on the processing

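The models of 22 and 30 June paired the libraries of each date. Beyond this pairing by date, no paired analysis was possible because each date and state has 1 library. Of 318 values recomputed under alternatives, 274 kept their direction and side of the threshold, or stayed within 1.5 times (counts and shares) or 0.1 log2 units (medians). The number of contigs chosen depended on the rule, at 226 with a rise of 3, 29 with a rise of 5 and 25 with scales and bracts under 1 FPKM. All 29 and all 25 were higher with pollen on 30 June.

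The date of coming on depended on its definition. The share past it by 30 June was 76.9% with and 53.8% without pollen at the midpoint, and 42.3% and 20.5% at 0.5 of the 6 July FPKM. Without pollen it was 25.6% at 0.75 of the rise. By 22 June the midpoint shares were 2.56% with and 16.7% without pollen. They were 19.2% and 38.5% at 0.25 of the rise, 1.28% and 3.85% at 0.75 of it, and 1.28% and 2.56% at 0.5 of the 6 July FPKM. With pollen the 22 June share was 12.8% at 10 FPKM, 4% with scales and bracts under 1 FPKM and 0% with a rise of 5, where it was 6.90% without pollen. Contigs earlier with pollen were 24.4% (44.8% with a rise of 5, 59.0% by interpolation). Those earlier without pollen were 14.1% (3.85% at 0.75 of it, 6.41% at 10 FPKM, 2.56% at 0.5 of the 6 July FPKM, 6.90% with a rise of 5, 41.0% by interpolation).

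The median difference on 30 June was 1.53 log2 units with a pseudocount of 0.1 FPKM, 0.92 with 5 FPKM, 2.29 with a rise of 5 and 1.17 with scales and bracts under 1 FPKM. The share 2-fold or more higher with pollen, 43.6%, was 69.0% with a rise of 5, and 24.4% at 4-fold. On 22 June the median was -0.35 and -0.052 log2 units with pseudocounts of 0.1 and 5 FPKM. The 22 June share at 2-fold or more was 2.56% higher and 10.3% lower with pollen at a minimum of 1 FPKM, and the share lower was 1.28% at 4-fold and 0% with scales and bracts under 1 FPKM.

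Without a filter on low values the limma test of 30 June gave 124 contigs, 0 of them among the 78, and the step from 22 to 30 June gave 675 contigs and 8 of the 78. The step gave 4160 contigs at an adjusted p under 0.1, and 0 contigs, 0 of the 78, on the 4 libraries of 22 and 30 June. The 22 June term of GAZW02029261 turned to -0.014 log2 units with a pseudocount of 5 FPKM. The cause was not tested. Unknown depth limits all values under 1 FPKM.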

Other observations

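The 7 contigs that were lower on 6 July than on 30 June in the pollinated libraries stood at 20.3 to 460.4 FPKM on 30 June and at 20.1 to 354 FPKM on 6 July. In the unpollinated libraries they stood at 16.3 to 395 FPKM on 6 July, with a median of 235 FPKM against 72.5 FPKM with pollen. Contig by contig the gap was small, with a median pollinated minus unpollinated difference of -0.16 log2 units on 6 July. The pollinated value of that date was also part of how the 7 were picked. On 22 June 6 of the 7 were lower with pollen.

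The 20 contigs under 1 FPKM without pollen on 30 June reached 18.6 to 328 FPKM without pollen on 6 July. With pollen they stood at a median of 4.95 FPKM on 30 June and 74.4 FPKM on 6 July.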
